A study of Mus musculus with 6 samples.

Results

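Cytosolic ribosomal protein genes were examined in heart ventricles of skNAC knockout mouse embryos and of their wild-type littermates at E11.5. skNAC is the long, muscle-specific form of the alpha subunit of the nascent polypeptide-associated complex. Members were all probe sets whose only gene symbol in the platform annotation names a cytosolic ribosomal protein (Rpl or Rps with a number, with or without a or x, and Rplp0, Rplp1, Rplp2 and Rpsa). The rule took 94 of the 45101 probe sets on the Affymetrix mouse 430 2.0 array. They belong to 42 of 18194 genes, 22 of the large and 20 of the small subunit. A gene is represented by its probe set with the highest mean signal.

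The knockout group had 3 arrays, titled 1, 26 and 66, of ventricles from embryos with a targeted deletion of skNAC. The wild-type group had 3 arrays, titled 13, 23 and 57, of ventricles from littermates. All 6 were labelled as strain 129SvEv, and each labelling started with 500 ng of Trizol-extracted total RNA. The labels do not say whether an array held 1 heart or several, or which embryos shared a litter, so p-values measure only the spread between these samples.

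A ribosome has a small subunit, which binds mRNA and decodes it, and a large subunit, which joins amino acids and releases the growing chain through an exit tunnel. Cells make the ribosomal proteins in matched amounts, since a ribosome holds a single copy of nearly all of them. Many of their mRNAs start with a tract of C and T bases, the terminal oligopyrimidine tract, through which mTOR signalling and Larp1 adjust their translation. The nascent polypeptide-associated complex docks on the large subunit near the tunnel exit, next to proteins such as Rpl23a, Rpl31 and Rpl35.

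The start sites show a feature that the rule did not use. RefSeq promoter windows on build GRCm38.p6, each 300 bases long with 250 before the annotated start, matched 37 of the 42 genes. Where a gene had several starts, the first listed was taken. The first 6 transcribed bases were all C or T in 10 of the 37 (27% of them). The share was 2.83% in the 9390 other tested genes with a window and 2.93% in all 27025 genes of the promoter table. These counts depend on the exact annotated start. A run of 6 C or T bases anywhere from 10 before to 20 after the start was found in 22 of 37 members (59.5%). That share was 27.4% in the other tested genes and 28.6% in all genes. The 6 below were chosen, after the values were seen, to show tracts from the first base on in members with a higher mean in knockout. Rpl41 is shown as a member whose annotated start lacks such a tract. Each runs 5′ to 3′ from 40 bases before the start, and capitals mark the unbroken C and T tract from the first transcribed base on, within the 12 bases shown.
Rpl35 (chr2:39005120-39005171, minus strand): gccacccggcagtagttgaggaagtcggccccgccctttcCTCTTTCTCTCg
Rpl38 (chr11:114668540-114668591, plus strand): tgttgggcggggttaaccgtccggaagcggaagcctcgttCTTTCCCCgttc
Rps6 (chr4:86857356-86857407, minus strand): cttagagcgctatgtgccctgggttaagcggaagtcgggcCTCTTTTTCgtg
Rps10 (chr17:27635233-27635284, minus strand): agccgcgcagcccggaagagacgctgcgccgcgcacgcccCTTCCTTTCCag
Rps24 (chr14:24490638-24490689, plus strand): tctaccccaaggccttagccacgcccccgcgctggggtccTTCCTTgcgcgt
Rps27 (chr3:90213637-90213688, minus strand): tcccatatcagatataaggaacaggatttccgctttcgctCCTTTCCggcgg
Rpl41 (chr10:128549157-128549208, minus strand): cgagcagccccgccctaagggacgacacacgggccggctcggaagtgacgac

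Short motifs were counted on both strands of the whole windows. The ETS-type motif CCGGAA, which stands in the windows printed for Rpl38, Rps10 and other members, was found in 22 of 37 members (59.5%), in 26.9% of the other tested genes and in 15.2% of all genes in the promoter table. The GC box GGGCGG was found in 20 of 37 (54.1%), against 63.2% of the other tested genes and 35.9% of all genes. TATAAA was found in 4 members (10.8%), against 7.75% of the other tested genes and 14.2% of all genes. The YY1-type motif AAGATGGC was found in 2 (5.41%), against 4.66% and 2.88% in the same gene sets. None of these motifs contains another, and partial overlaps between them were not sought. A match describes these letters in this window and is not a binding site.

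The annotation decides which proteins can be followed. Of 79 cytosolic ribosomal proteins in a textbook list, 47 of the large and 32 of the small subunit, 42 had a probe set with their symbol alone. Another 27 were reached only by probe sets that list several symbols, mostly with predicted genes or pseudogenes, and such probe sets are described below without gene names. Fau and Rps3a1, which encode ribosomal proteins under symbols that the rule does not take, are given separately.

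The values are MAS5 signals on a linear scale, and each is read against the overall brightness of its own array. Fold changes are on the log2(signal + 16) scale, knockout minus wild-type ± SE, and understate the change of dim genes. A gene was tested if its mean lay above the median of all probe sets, a signal of 95.2. This left 41 of the 42 members among 11661 genes. The member below it, Rps16, a small subunit protein at the decoding side, had a single probe set of its own symbol that read 3.1, 4.8 and 2.9 in knockout against 3.2, 5.3 and 3.5 in wild-type, and no difference is given for it. Signals of different probe sets are not compared with each other, since probes differ in how they bind. In 32 of the 42 genes the representing probe set lay above the 99th percentile of all probe sets.

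The 2% trimmed mean was 250 in all 6 arrays. A value that is the same in every array cannot show how alike the arrays were. Array medians ranged between 92 and 113.9 in knockout and between 95 and 111.3 in wild-type. All 6 ventricle markers were above the filter, with summed signals of 57991 to 67220 in knockout against 55490 to 61382 in wild-type. Of 5 atrial markers 4 were also above it (29646 to 32476 in knockout, 28561 to 30882 in wild-type). That sum mostly follows Myl7 (mean 14686 in knockout, 13601 in wild-type) and Myl4 (mean 15900 in knockout, 15442 in wild-type). The atrial marker Sln and 5 of 6 liver markers were below the filter, the liver list summing to 488 to 602 in knockout against 353 to 507 in wild-type. Erythroid markers summed to 54660 to 71198 in knockout against 49370 to 58637 in wild-type, and epicardial markers to 3901 to 4710 in knockout and 3870 to 4118 in wild-type. Endothelial markers summed to 3070 to 3296 in knockout against 3136 to 3236 in wild-type. These ranges overlapped in every list. Of the 29 markers tested, 3 (Krt8, Krt19 and Myl2) were higher in every knockout array and 1 (Pecam1) was lower. Among all genes tested 5.4% were higher without overlap and 5.45% lower. The epicardial marker Krt8 read 1095, 1621 and 1056 in knockout against 603, 787 and 729 in wild-type (0.80 ± 0.18, limma adjusted p = 0.742). The ventricle marker Myl2 gave 0.23 ± 0.10, and the endothelial marker Pecam1 -0.28 ± 0.22. Other markers of the same lists went the other way, with overlapping arrays. Among them were epicardial Upk3b (-0.19 ± 0.14), ventricular Hey2 (-0.33 ± 0.21) and endothelial Cdh5 (0.27 ± 0.24). The part of these markers in the results on ribosomal protein genes was not tested. In such bulk samples, fewer cells of a type and less RNA per cell cannot be told apart.

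Most ribosomal protein genes had slightly higher signals in knockout ventricles, and none passed the test. Of the 41 tested, 36 had a log2 difference above 0 and 5 below, with a median of 0.119, or 8.59% more signal. Over all 11661 genes 50.4% lay above 0, with a median of 0.002. Quantile normalization forces 1 common distribution on the arrays, and with it 20 of 41 lay above 0 and the median was -0.003. In limma 0 of 41 members had an adjusted p under 0.05, against 0% of all genes, and the smallest adjusted p was 0.974. At an unadjusted p under 0.05, 5 members were higher and 0 lower, against 2.18% of all genes higher, 2.51% lower and 4.69% in either direction. For a single gene, an exact permutation test of 3 arrays against 3 cannot give a two-sided p below 0.1. The 95% interval lay within 0.5 on either side of 0 in 38 of the 41. Changes larger than that are outside the interval for the probe sets that represent these genes. Of all 82 kept member probe sets, 69 had such an interval. The median SE was 0.094 for members and 0.186 for all genes tested.

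All 3 knockout arrays lay above all 3 wild-type arrays in 17 of the 41 members, and in 0 the order was opposite. Among all genes tested 5.4% were higher without overlap and 5.45% lower. After quantile normalization 4 members were higher and 2 lower without overlap, where the background was 5.86% higher. After centring on array medians 7 were higher, against 4.83% of all genes.

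**Figure D1:**
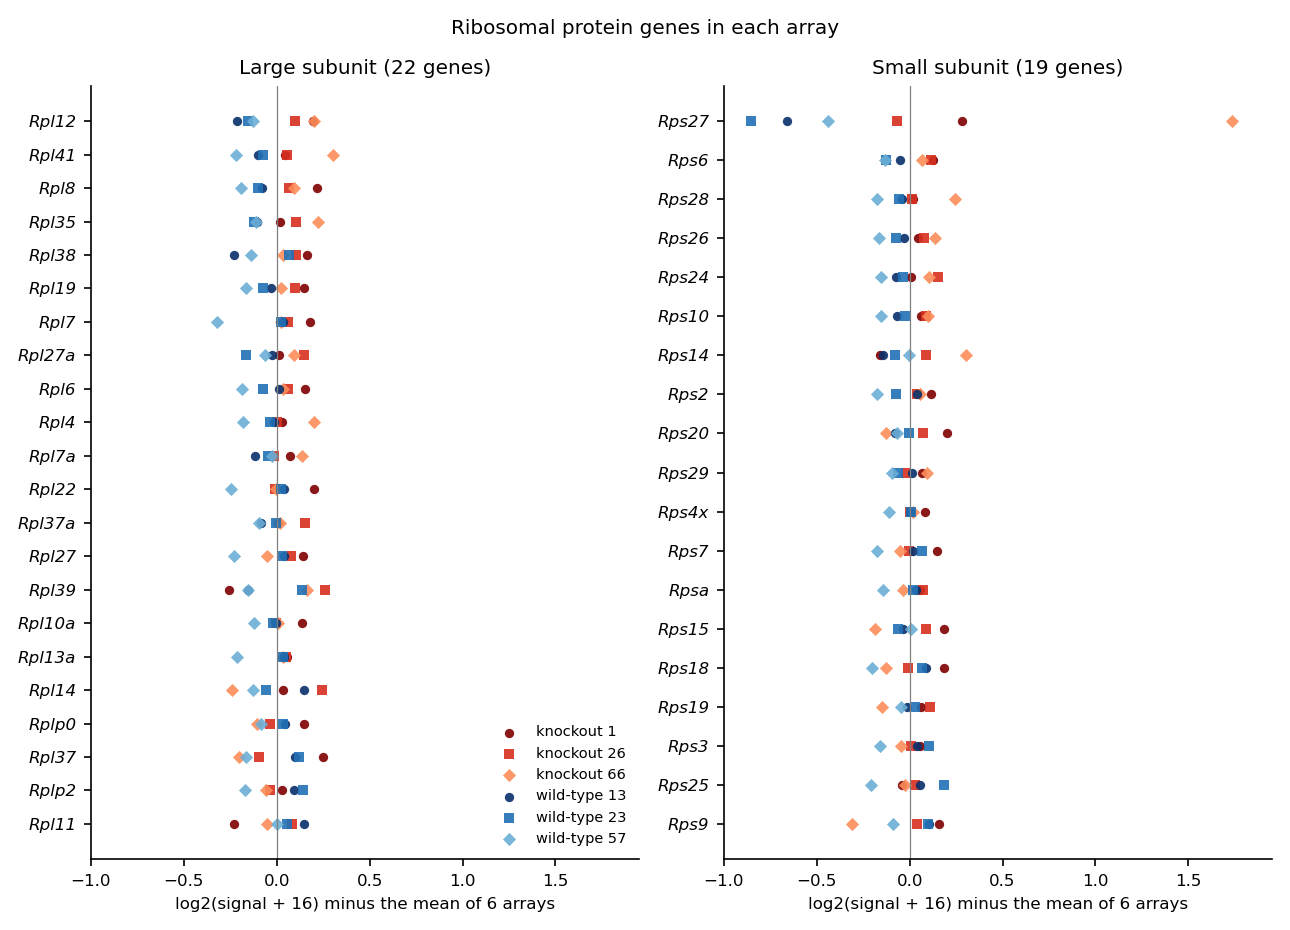
Each point is 1 array of 1 ribosomal protein gene, as log2(signal + 16) minus that gene's mean over the 6 arrays, for the 22 large subunit genes (left) and the 19 tested small subunit genes (right), ordered by difference. Knockout arrays are in red shades and wild-type arrays in blue shades. Wild-type 57 is the lowest array in 25 of the 41 genes.

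**Figure D2:**
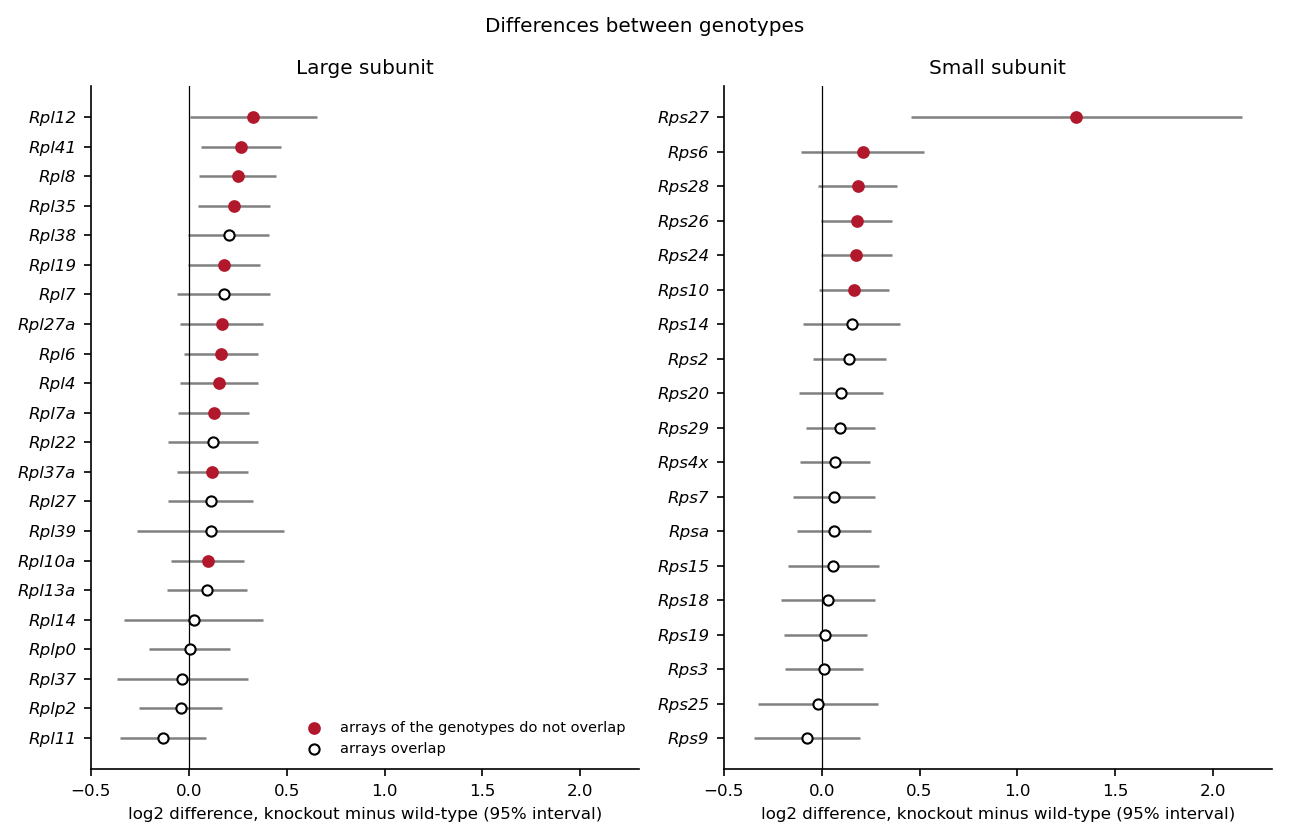
Log2 differences, knockout minus wild-type, with 95% intervals for the 41 tested genes. Filled points mark the 17 genes whose arrays do not overlap between genotypes; 36 of 41 points lie above 0, and most intervals reach 0.

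Among genes with bright probe sets, the median shift of members was close to that of the others. Among dim ones the medians differed, on only 7 members. Of the members, 33 had a mean signal above 5000, with 30 above 0, a median of 0.119 and 13 higher without overlap (39.4%). Among the 229 other genes above 5000, 188 lay above 0 (82.1%), the median was 0.108 and 61 were higher without overlap (26.6%). Below a signal of 1000 the 7 members had 5 above 0, a median of 0.112 and 3 higher without overlap (42.9%). The 9579 other genes below 1000 had 48.2% above 0, a median of -0.009 and 4.4% higher without overlap. The 7 dim members had a median SE of 0.152, included Rps27, and were not matched in signal to these other genes. The difference between members and other genes was not tested.

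**Figure D3:**
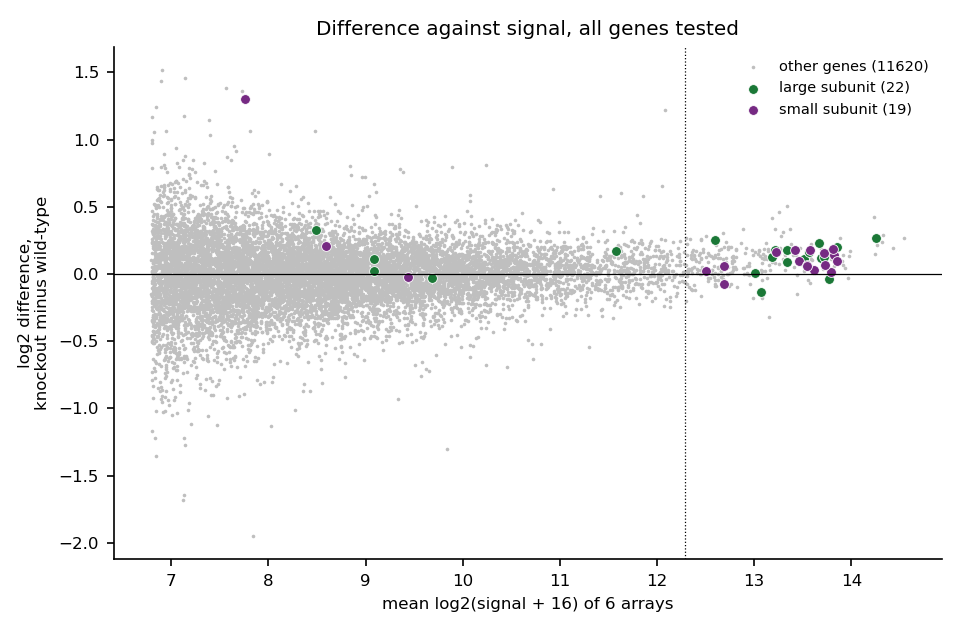
Log2 difference, knockout minus wild-type, against the mean log2 signal for the 11661 genes tested, with large subunit members in green and small subunit members in purple. The dotted line marks a signal of 5000, right of which 33 of the members and 229 other genes lie, both mostly above 0.

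By array, the mean deviation of the 41 genes from the average of the 6 arrays was 0.083, 0.058 and 0.066 in knockout 1, 26 and 66. It was -0.031, -0.028 and -0.147 in wild-type 13, 23 and 57. With the signals as deposited, the knockout arrays were thus close together and wild-type 57 lay below the rest. After centring on array medians the values were 0.209, 0.093 and -0.076 in knockout against 0.055, -0.022 and -0.259 in wild-type, so that knockout 66 lay below wild-type 13 and 23 and the genotypes overlapped. Wild-type 57 was the lowest array in 25 of the 41 genes and the highest in 0, while knockout 1 was the highest in 19. Without wild-type 57 the median difference was 0.079, with 31 genes above 0. The summed signal of the 41 probe sets was 2.37%, 2.34% and 2.36% of all signal in the knockout arrays against 2.26%, 2.28% and 2.14% in the wild-type arrays. The ratio of 3′ to 5′ control probe sets was higher in every knockout array than in every wild-type array. For actin it was 2.57, 2.49 and 2.56 in knockout against 2.13, 2.24 and 2.05 in wild-type. For Gapdh it was 1.33, 1.28 and 1.45 in knockout against 1.2, 1.12 and 1.18 in wild-type. Within wild-type the actin ratio was lowest in array 57 and the Gapdh ratio in array 23. The member deviation was lowest in array 57. The part of this ratio in the result was not tested.

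The subunits were not separated by array. The 22 large subunit genes had a median of 0.125, with 19 above 0 and 11 higher without overlap (50%). The 19 small subunit genes had a median of 0.095, with 17 above 0 and 6 higher without overlap (31.6%). The share higher without overlap was 5.4% in all genes and 26.6% in the 229 other genes with a signal above 5000. Of the members, 33 had such a signal. The large minus small difference of the per-array mean deviations was -0.009, 0.02 and -0.055 in knockout 1, 26 and 66 against 0.021, 0.035 and -0.011 in wild-type 13, 23 and 57, and these overlap. The medians differed by 0.030, or by 0.003 without wild-type 57 and 0.079 without knockout 1. Quantile normalization gave 0.025 for the large and -0.014 for the small subunit.

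**Figure D4:**
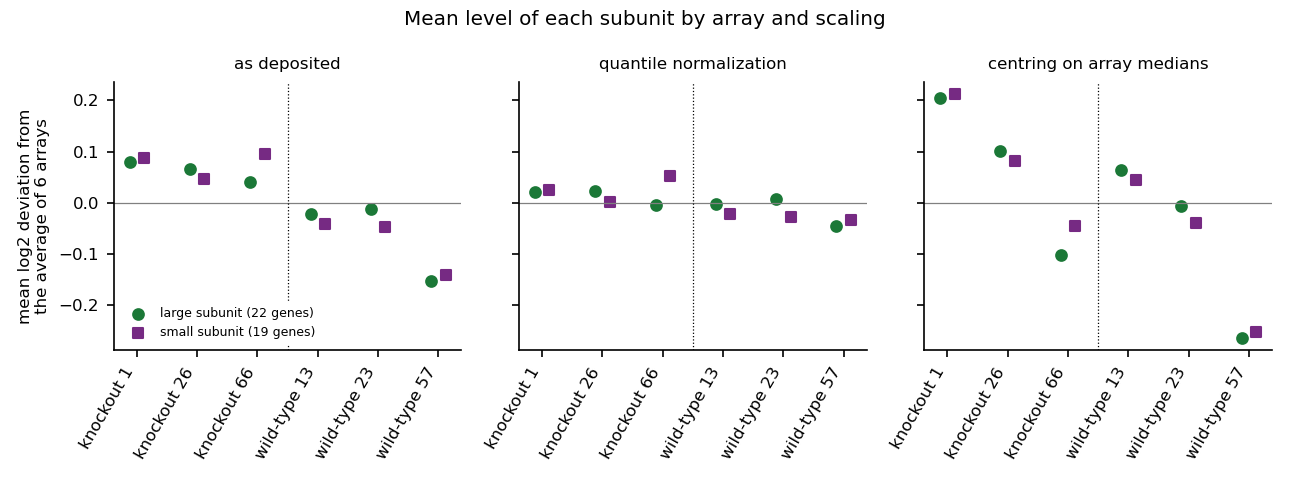
Mean log2 deviation from the average of the 6 arrays for large subunit genes (circles) and small subunit genes (squares) in each array, knockout left of the dotted line and wild-type right of it, under 3 scalings. As deposited, knockout arrays lie at 0.04 to 0.095 and wild-type arrays at -0.152 to -0.012; after quantile normalization all points lie between -0.046 and 0.053. After centring on array medians the genotypes overlap, with knockout points at -0.102 to 0.213 and wild-type points at -0.264 to 0.065.

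In the large subunit, Rpl41, the smallest ribosomal protein, read 20074, 20233 and 24030 in knockout against 18160, 18485 and 16744 in wild-type. Knockout 66 was the highest, and the groups did not overlap. The log2 difference was 0.27 ± 0.09 (limma adjusted p = 0.974). Its other 3 kept probe sets gave -0.11 to -0.044, so the probe sets disagree in sign.

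Rpl8, a core protein near the peptidyl transferase centre, read 7189, 6488 and 6605 in knockout against 5854, 5780 and 5408 in wild-type. Every knockout array was above every wild-type array. The difference was 0.25 ± 0.09 (limma adjusted p = 0.974), on a single probe set.

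Rpl35, which lies at the rim of the exit tunnel, read 13215, 13998 and 15188 in knockout against 12094, 11958 and 12060 in wild-type. The wild-type arrays lay close together, below all knockout arrays. The difference was 0.23 ± 0.08 (limma adjusted p = 0.974). The other 5 kept probe sets of Rpl35 ranged between -0.22 and 0.15, and 4 of them lay above 0.

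The other members at the exit site varied. Rpl19, at the subunit interface and close to the exit, read 11480, 11103 and 10548 in knockout against 10129, 9828 and 9251 in wild-type, with no overlap and a difference of 0.18 ± 0.08. Rpl22, an RNA-binding protein at the large subunit surface, gave 0.12 ± 0.10 on a probe set ending in _s_at, while its other 2 gave -0.086 and -0.079. Rpl39, which lines the tunnel, read 440, 637 and 593 in knockout against 474, 583 and 474 in wild-type. Its groups overlapped, at 0.11 ± 0.17. These 4 exit site genes were all above 0, with a median of 0.153. Of all 41 members 36 were above 0 (87.8%), with a median of 0.119. Of the 8 listed for the site, Rpl17, Rpl23a, Rpl26 and Rpl31 had no probe set of their own symbol and are not analysed here.

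The stalk recruits the elongation factors to the large subunit. Rplp0, the stalk's base protein, read 9096, 8035 and 7659 in knockout against 8490, 8437 and 7748 in wild-type. These overlapped, and the difference was 0.0041 ± 0.094 with a 95% interval of -0.20 to 0.21. Quantile normalization gave -0.074.

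Rplp2, an acidic stalk protein, read 14233, 13636 and 13420 in knockout against 14863, 15387 and 12411 in wild-type, a difference of -0.041 ± 0.096. Its knockout arrays lay between the wild-type arrays. Rpl12, which binds rRNA at the foot of the stalk, read 397, 370 and 398 in knockout against 295, 308 and 314 in wild-type. Its groups did not overlap, at 0.33 ± 0.15 (limma adjusted p = 0.974). No other probe set of the gene was kept.

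Rpl11, which with Rpl5 and 5S rRNA forms a particle that can bind Mdm2, had the lowest difference of the 41. It read 7320, 9111 and 8301 in knockout against 9507, 8921 and 8615 in wild-type. Knockout 1 was the lowest array, and the groups overlapped, at -0.13 ± 0.10 (limma adjusted p = 0.974). Rpl37 read 960, 752 and 698 in knockout against 862, 875 and 715 in wild-type, a difference of -0.033 ± 0.15, and it turned above 0 when knockout 26 or 66, or wild-type 13 or 23, was left out. Rpl38, known in mouse for axial skeleton patterning, read 16512, 15856 and 15105 in knockout against 12576, 15409 and 13372 in wild-type. Its difference was 0.20 ± 0.09, with wild-type 23 within the knockout range.

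Of the remaining large subunit genes, Rpl4, Rpl6, Rpl7a, Rpl10a, Rpl27a and Rpl37a were higher in knockout without overlap, at 0.096 (Rpl10a) to 0.17 (Rpl27a). The 4 others, Rpl7, Rpl13a, Rpl14 and Rpl27, were at 0.025 (Rpl14) to 0.18 (Rpl7) and overlapped.

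In the small subunit, Rps27, a zinc finger protein on the solvent side, had the largest difference of the 41, on a dim probe set. It read 248, 191 and 706 in knockout against 121, 104 and 144 in wild-type. All knockout arrays were above all wild-type arrays, and knockout 66 stood far above the other 5. The difference was 1.30 ± 0.38 (limma adjusted p = 0.974), with a 95% interval of 0.46 to 2.15. Without knockout 66 it was 0.759. This was the only probe set with the symbol Rps27 alone.

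Rps26, which lies at the mRNA exit channel, read 11300, 11556 and 12040 in knockout against 10700, 10403 and 9754 in wild-type. The groups did not overlap, at 0.18 ± 0.08 (limma adjusted p = 0.974). Rps28, a neighbour of that channel, read 14519, 14476 and 16999 in knockout against 13952, 13773 and 12686 in wild-type. It gave 0.18 ± 0.09 without overlap, and its other 2 probe sets gave 0.10 and 0.22.

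Rps10, a protein of the small subunit head, read 9992, 10200 and 10279 in knockout against 9132, 9422 and 8609 in wild-type, a difference of 0.17 ± 0.08 without overlap. Its other 4 kept probe sets ranged between -0.61 and 0.30. Rps24 read 12313, 13591 and 13155 in knockout against 11610, 11951 and 10973 in wild-type, with no overlap and a difference of 0.18 ± 0.08. Of its other 4 kept probe sets, 3 were below 0, down to -0.56. For both genes the mean of the kept probe sets was below 0, at -0.004 for Rps10 and -0.097 for Rps24.

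For Rps2, Rps3 and Rps15, listed for the mRNA entry and decoding region, the arrays of the genotypes overlapped. Rps3, at the mRNA entry, read 14699, 14167 and 13657 in knockout against 14517, 15149 and 12644 in wild-type, a difference of 0.011 ± 0.091. Rps2, its neighbour, read 15742, 14921 and 15080 in knockout against 14934, 13793 and 12830 in wild-type. It gave 0.14 ± 0.09, and wild-type 13 lay just above knockout 26. Rps15, near the decoding centre, read 7468, 7000 and 5784 in knockout against 6423, 6285 and 6621 in wild-type, at 0.059 ± 0.11.

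Rps9, whose yeast counterpart affects decoding accuracy, read 7353, 6762 and 5296 in knockout against 7064, 7058 and 6178 in wild-type. The groups overlapped, at -0.075 ± 0.12. Its other kept probe sets gave -0.45 and 0.61, and the one at 0.61 read 282, 291 and 304 in knockout against 212, 159 and 189 in wild-type. The genotypes did not overlap on that dim probe set, while they did on the one that represents the gene. Rps25, needed in human cells for some internal ribosome entry sites, read 661, 694 and 668 in knockout against 707, 775 and 586 in wild-type, at -0.021 ± 0.14. Rps29 read 15454, 14584 and 15764 in knockout against 14880, 14145 and 13844 in wild-type, at 0.095 ± 0.080, with wild-type 13 above knockout 26.

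Of the remaining small subunit genes, Rps6, the target of S6 kinase, was higher without overlap on a dim probe set, at 407, 404 and 390 in knockout against 358, 338 and 337 in wild-type (0.21 ± 0.14). The 7 others, Rps4x, Rps7, Rps14, Rps18, Rps19, Rps20 and Rpsa, overlapped and lay at 0.019 (Rps19) to 0.15 (Rps14). Rps19 is among 10 listed genes mutated in Diamond-Blackfan anaemia, of which 6 were tested here. The 6 had a median of 0.115, with 5 above 0 and 3 higher without overlap, a share of 50%. That share was 41.5% in the members, 5.4% in all genes and 26.6% in the other genes with a signal above 5000.

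Agreement between probe sets of the same gene was limited. Of 18 genes with more than 1 kept probe set, 11 had at least 1 of opposite sign. Among the 41 kept probe sets that did not represent their gene, 24 were above 0, with a median of 0.032 and 8 higher without overlap (19.5%, against 5.4% of all genes). The mean of each gene's kept probe sets gave a median of 0.064 over the 41 genes. Probe sets ending in _x_at or _s_at can bind related transcripts, and they represented 16 of the 41. Those 16 had a median of 0.132, and the 25 others 0.112.

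**Figure D5:**
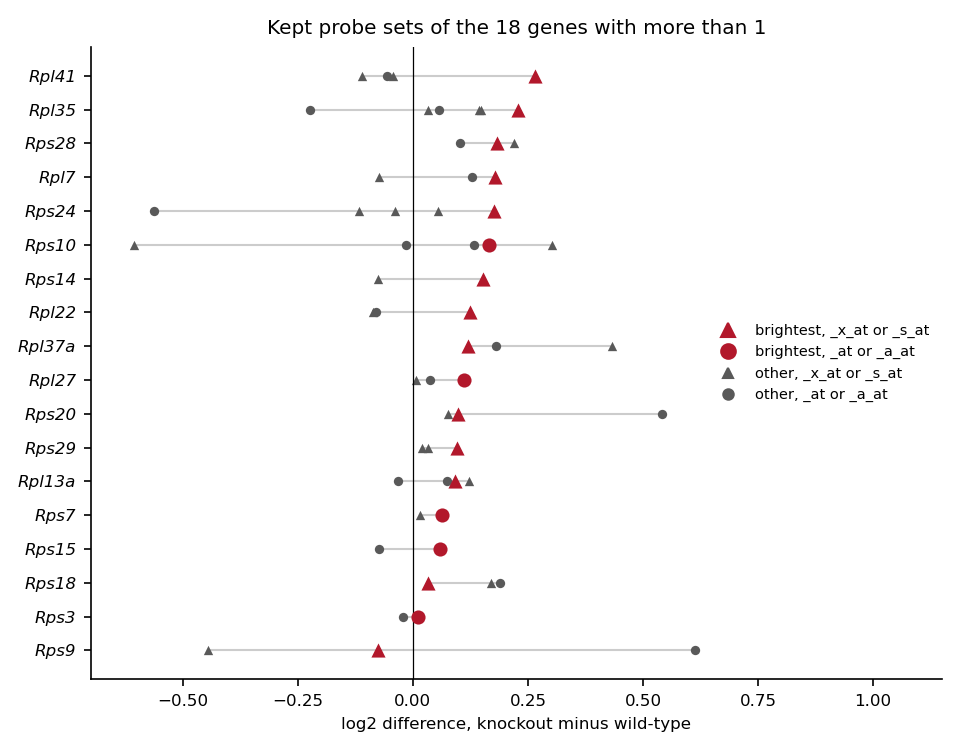
Log2 difference, knockout minus wild-type, of every kept probe set of the 18 genes with more than 1. Large red symbols are the probe sets that represent the gene, small grey symbols the others, and triangles mark suffixes _x_at and _s_at. In 11 of the 18 genes grey symbols lie on the other side of 0.

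Probe sets with several symbols, at least 1 of them a ribosomal protein, gave a similar picture without entering the member list. Of 101 kept, 83 were above 0, the median was 0.127 and 38 were higher without overlap (37.6%). The 428 other kept probe sets with several symbols had a median of 0.014, with 10.3% higher without overlap. These were not matched in signal to the 101, and the median SE was 0.182 against 0.094. Genes that are not members, on bright probe sets (above 5000) ending in _x_at or _s_at, numbered 82. They had a median of 0.115, with 28% higher without overlap. Transcripts of the genes that such a probe set lists cannot be told apart.

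Genes that build ribosomes formed another list, of rRNA synthesis, processing and subunit assembly factors. Of 56 listed genes 55 were tested, and 36 lay above 0 with a median of 0.041. In limma 0 had an adjusted p under 0.05, and 4 were higher and 0 lower at an unadjusted p under 0.05. Over all genes 2.18% were higher at that p. Without overlap 5 were higher (9.09%) and 3 lower, against 5.4% and 5.45% of all genes. Utp4, a factor of early small subunit assembly, read 942, 835 and 1087 in knockout against 717, 682 and 712 in wild-type (0.42 ± 0.13). Nop10, a small protein of the pseudouridylating box H/ACA particles, read 6110, 6536 and 6595 in knockout against 5479, 5425 and 4932 in wild-type (0.28 ± 0.09). Bop1, needed for large subunit maturation, read 345, 432 and 396 in knockout against 308, 269 and 283 in wild-type (0.42 ± 0.16). All 3 separated the genotypes, and none passed the adjustment, at 0.974 each.

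A further list held regulators of ribosomal protein synthesis. Of 10 listed 8 were tested, 6 above 0 with a median of 0.055, and 0 passed at an adjusted or an unadjusted p of 0.05. Maf1, a repressor of RNA polymerase III, gave 0.21 ± 0.14. Eif4ebp2, a translation inhibitor controlled by mTOR, gave 0.23 ± 0.17, with other probe sets between -0.47 and 0.41. Mtor itself gave -0.13 ± 0.13. For each of these 3 the arrays overlapped.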

How the data were processed

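The authors deposited 1 table of probe set intensities for the 6 arrays. The submitters' processing notes name GCOS and MAS5, without versions, and no detection calls were used here. Of 45101 probe sets, 64 were array controls, and 34958 had 1 gene symbol in the platform annotation.

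Intensities were transformed as log2(intensity + 16). The 22518 probe sets above the median of all non-control means were fitted with a two-sided moderated test in limma 3.58.1 under R 4.3.3 (lmFit, then eBayes with an intensity trend). Each gene's brightest probe set was adjusted by Benjamini-Hochberg over 11661 genes, with calls at 0.05. Lists got counts and medians and no test. The fit was tested on simulated data. The number of arrays limits the precision.

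Members and lists were chosen with earlier results of these data known. Members named with values were the 6 higher and up to 6 lower with the smallest p, the 3 brightest and 3 dimmest, up to 10 without overlap by smallest p, and those of 4 structural lists. Ribosomal protein genes outside the rule and paralogs, and the 3 with the smallest p in the assembly and regulator lists, were also named. Others were added after their values were seen. Promoter sequences are from RefSeq, GRCm38.p6. Figures used Matplotlib 3.10.9.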

Additional observations from a re-analysis of the deposited data

How the results depend on the processing

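No paired analysis was possible because the genotypes share no replicate number. The number of members with an adjusted p under 0.05 was 0 in all 17 alternatives, while over all genes 8 passed with array quality weights, 2 without knockout 1, 1 without knockout 66 and 0 in the rest. At an unadjusted p under 0.05, the 5 higher members became 12 with array quality weights, 9 with robust eBayes and 8 with the filter at the 70th percentile. The count became 3 without a filter, after quantile normalization (then also 2 lower) or without knockout 26. It became 2 without a trend and 1 after centring on array medians. In the main fit 2.18% of all genes were higher at that p. That share is not given for the alternatives, so these counts are not read as a result about the members. The list median of 0.119 became -0.003 after quantile normalization, 0.064 with the mean of a gene's kept probe sets, and 0.079 to 0.140 with 1 array left out, lowest without wild-type 57. Members above 0 numbered 20 after quantile normalization and 31 to 39 with 1 array left out. Members higher without overlap numbered 4 after quantile normalization (5.86% of all genes) and 7 after centring (4.83%). With 1 array left out they numbered 17 to 25, most without knockout 66. Leaving out 1 array also raised the share of all genes, to 9.06% to 12.8% from 5.4%, and 12.8% was without knockout 66. Members lower without overlap numbered 2 after quantile normalization, 2 without wild-type 57 and 1 without knockout 26. The large subunit median was 0.025 after quantile normalization. The small subunit median was -0.014 after it, 0.049 with the mean of probe sets and 0.051 to 0.111 with 1 array left out. Large minus small was 0.003 to 0.079 with 1 array left out. In the other alternatives these values stayed within their spread or within 1.5 times, among them 5 added after the data were seen. The cause of these shifts was not tested.

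Among the members named by the rule, these turned sign, none with a call; the other members were not followed singly, though over all 41 those above 0 numbered 36 as deposited and 20 after quantile normalization. Quantile normalization gave -0.074 for Rplp0, -0.014 for Rps15, -0.005 for Rps2, -0.049 for Rps29 and -0.132 for Rps3. With the _x_at and _s_at probe sets dropped, Rpl22 was at -0.079, Rpl41 at -0.057, Rps24 at -0.563 and Rps9 at 0.614. The mean of probe sets gave -0.014 for Rpl22, -0.004 for Rps10, -0.007 for Rps15, -0.097 for Rps24, -0.006 for Rps3 and 0.031 for Rps9. Array quality weights gave -0.017 for Rplp0 and -0.014 for Rps3. With 1 array left out, values ranged over -0.166 to 0.06 for Rpl37, -0.067 to 0.057 for Rplp0, -0.136 to 0.019 for Rplp2, -0.018 to 0.166 for Rps15, -0.131 to 0.066 for Rps25, -0.066 to 0.064 for Rps3 and -0.174 to 0.062 for Rps9.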

Other observations

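Ribosomal protein genes and paralogs outside the symbol rule were read separately. Fau, which encodes a ubiquitin-like fusion with Rps30, read 8305, 8320 and 8934 in knockout against 8099, 8114 and 6965 in wild-type (0.14 ± 0.09). Rps3a1 read 16838, 15835 and 15843 in knockout against 14584, 15489 and 13868 in wild-type (0.14 ± 0.08). Both were higher in all knockout arrays, and neither passed in limma, at an adjusted p of 0.974 each. Rpl22l1, the paralog of Rpl22, read 5980, 4704 and 3405 in knockout against 5001, 4828 and 4102 in wild-type, at -0.016 ± 0.17. Rps27l, the paralog of Rps27, gave 0.12 ± 0.12, with overlapping arrays.

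Of the paralogs restricted to certain tissues, Rpl3l, known from adult skeletal and heart muscle, read 5.9, 6.5 and 8.8 in knockout against 8.2, 8.7 and 8.4 in wild-type, below the filter. Rpl39l, best known from testis, read 141, 65.9 and 65.5 in knockout against 82.5, 125 and 146 in wild-type. Rps4l gave -0.15 ± 0.14 and Rpl7l1 0.032 ± 0.15, both with overlapping arrays.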
